A study of Mus musculus with 71 samples.

Results

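The genes described here encode the subunits and named assembly factors of the mitochondrial respiratory chain and ATP synthase, measured as RNA in whole mouse brain. Their probe sets were chosen by gene symbol, with earlier results of these data known. Every probe set was taken whose single platform symbol begins with Nduf, Uqcr, Atp5 or Cox and a digit. Those with the single symbol Sdha, Sdhb, Sdhc, Sdhd, Cycs or Cyc1 were added. This gave 202 of 45037 probe sets and 100 of 18193 named genes, of which 42 genes had 1 probe set and 58 had several. A probe set is a group of short probes on the array that reads 1 stretch of a transcript. Of the 202 probe sets, 52 end in _x_at or _s_at and can match several transcripts, and 172 had a mean level above that of the median probe set. Another 11 probe sets carried several symbols with a member among them and were not used.

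The study asked how sleep loss alters brain RNA, and how strain and time of day bear on that. Sleep-deprived male DBA/2J, AKR/J and C57BL/6J mice were kept awake for 6 h, with the deprivation beginning at light onset, in the middle of the light phase, at dark onset or in the middle of the dark phase, and were killed at its end, at ZT6, ZT12, ZT18 or ZT0 (hours after light onset). Control mice of the same inbred strains, killed at the same times, had stayed in their home cages. All mice came from the Jackson Laboratory at 12-13 weeks of age and had free access to food and water, and no allele was engineered and no drug was named. Each Affymetrix array carried the pooled RNA of 3 mice out of 9 in a group, so that p-values measure the spread between pools. There were 35 arrays of sleep-deprived mice and 36 of controls in 24 groups of 3 arrays, except that sleep-deprived AKR/J mice at ZT18 had 2. The whole brain is a mixture of cell types, and fewer cells of a type cannot be told apart from less RNA per cell.

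The respiratory chain sits in the inner mitochondrial membrane. Complex I takes electrons from NADH and complex II from succinate; complex III passes them to the small soluble protein cytochrome c, and complex IV hands them to oxygen. Complexes I, III and IV pump protons as they work, and ATP synthase lets the protons flow back and makes ATP, on which neurons depend for ion pumping and synaptic transmission. Most subunits are encoded in the nucleus, as are all members here, and a few core subunits by mitochondrial DNA. By role, the members were 16 probe sets of 6 genes for the catalytic core of complex I, 62 of 30 genes for its accessory subunits (Ndufa4, known today as a complex IV subunit, was kept here by its symbol), 10 of 8 genes for its assembly factors, 9 of 4 genes for complex II, 17 of 9 genes for complex III, 4 of the cytochrome c gene Cycs, 35 of 17 genes for complex IV, 18 of 8 genes for complex IV assembly and 31 of 17 genes for ATP synthase.

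Values are log2 signal per probe set as the authors normalized them, and a difference of 1 means a doubling of signal. A probe set was called when limma's adjusted p, over all 45037 probe sets, was under 0.05. Levels of different probe sets are not comparable, since each has its own probes. The mean level over the 202 members was 9.40 to 9.56 (median 9.49) on arrays of sleep-deprived mice and 9.39 to 9.55 (median 9.47) on control arrays. The signal of the 3 prime minus the 5 prime control probe set of Gapdh, a measure of RNA quality, had medians of -0.23 in sleep-deprived mice and -0.22 in controls, and that of Actb 0.682 and 0.685. The mean level of 10 neuronal markers lay between 11.39 and 11.66 in sleep-deprived mice and between 11.35 and 11.65 in controls. With no other tissue to set beside it, this level does not test the tissue label. The mean level of 6 markers of the pituitary, a gland attached to the brain, varied widely from array to array, from 5.17 to 9.67 in sleep-deprived mice and from 5.20 to 9.99 in controls. Skeletal muscle markers, relevant to the muscle isoforms of complex IV, had mean levels of 4.89 to 5.87 in sleep-deprived mice and 4.88 to 5.11 in controls. On the spike-in RNA added during labelling, 6 arrays stood apart, with means of 5.18 to 5.35 against 5.66 to 6.11 on the rest. They were 3 of sleep-deprived C57BL/6J mice (ZT0 replicate 3, ZT6 replicates 1 and 3), 1 of control C57BL/6J mice (ZT0 replicate 3) and 2 of control AKR/J mice (ZT0 and ZT6, replicate 3). The same 6 arrays stood apart on the Gapdh measure, at -0.121 to -0.042, against -0.155 or lower on the rest.

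After sleep deprivation, members shifted little and more of them upward, but not in complex II, in the complex I core or at ZT12. Averaged over strains and times, 33 of the 202 probe sets were called, 26 higher and 7 lower, in 26 genes. That is 16.3% of the members, where 17.3% of all probe sets were called in either direction, 8.31% higher and 9% lower, so the share called was near the background. Among members 138 of 202 differences were above 0 (68.3%), against 47.7% of all probe sets. The median difference was 0.0128 over members and -0.00238 over all probe sets. Called members changed little, by a median of 0.0677 log2 units, against 0.106 for all called probe sets. Of the 33 called probe sets 25 changed by under 0.1, and the arrays of sleep-deprived and control mice overlapped in all 33. Every one had the same sign in the 3 strains, 30 had it at all 4 times, and 22 had it in at least 10 of the 12 strain-by-time comparisons. The calls rest on the mean of these same 12 differences, so the agreement in sign is a description and no separate support. Matching shares over all called probe sets were not computed for the overlap or the signs. Counting 1 probe set a gene, the brightest, 18 of 100 genes were called, where 22.1% of all genes were.

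**Figure D1:**
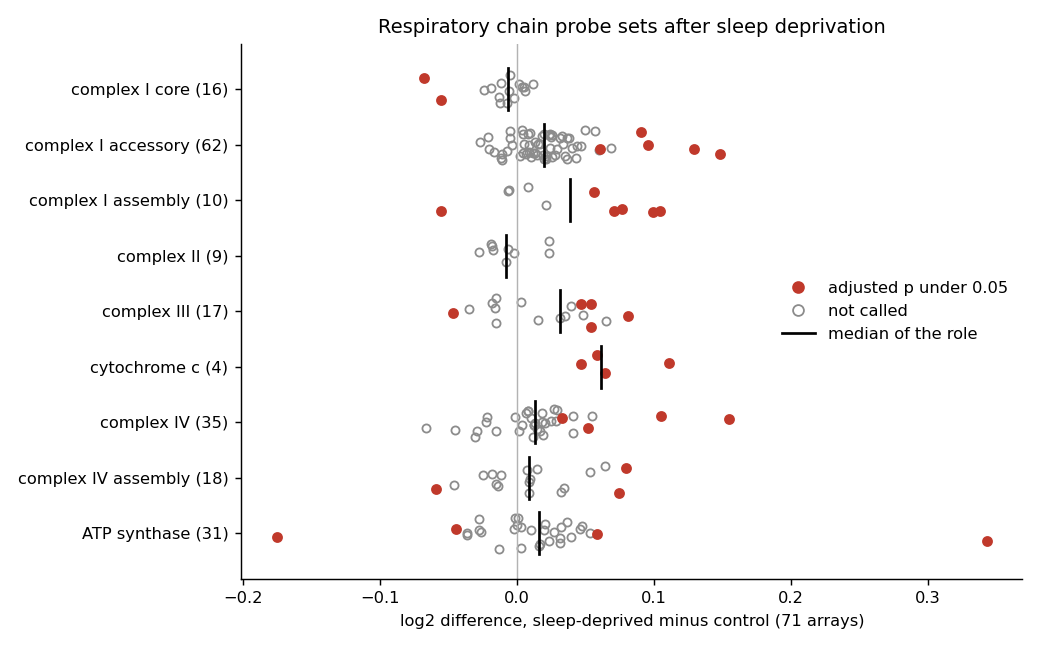
Differences in log2 level, sleep-deprived minus control mice, averaged over strains and times, for the 202 probe sets by role in the respiratory chain. Filled points are the 33 called probe sets, open points the others, and black bars the median of each role; all 4 probe sets of cytochrome c were higher, and none of the 9 of complex II was called.

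Complex I, which has the most probe sets, showed the largest number of calls. Its assembly factors had the largest share called among roles with several genes. For these and the role counts that follow, 17.3% of all probe sets were called (8.31% higher, 9% lower). The shares of the accessory and core subunits of complex I were below that. Of the 10 probe sets of assembly factors, which build the complex and are not part of it, 5 were higher and 1 lower. Of the 62 probe sets of accessory subunits, which surround the core, 5 were higher and none lower, and 51 differences were above 0 with a median of 0.0196. Of the 16 probe sets of the core, which holds the flavin and iron-sulfur clusters, 2 were lower and none higher, and 5 differences were above 0.

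Ndufaf4, a factor in early complex I assembly, had levels of 8.28 to 8.69 (median 8.53) in sleep-deprived mice and of 8.20 to 8.60 (median 8.42) in controls on its probe set 1435333_at. The ranges overlapped and the median was higher after sleep deprivation. It rose by 0.10 ± 0.02 (SE, 71 arrays; limma adjusted p = 0.000121), and on its other probe set by 0.06 ± 0.02 (adjusted p = 0.0318). Ndufaf1, which works with the early intermediates of the membrane arm, had levels of 7.87 to 8.74 (median 8.50) in sleep-deprived mice and 7.62 to 8.65 (median 8.42) in controls. It rose by 0.10 ± 0.02 (adjusted p = 0.000533). The levels of Ndufaf5, which modifies a core subunit during assembly, were 8.33 to 8.86 (median 8.55) in sleep-deprived mice and 8.28 to 8.74 (median 8.45) in controls. It rose by 0.08 ± 0.02 (adjusted p = 0.000713). Ndufaf2 rose by 0.07 ± 0.02 (adjusted p = 0.0306). Ndufaf3, the binding partner of Ndufaf4, went the other way: it fell by 0.06 ± 0.02 (adjusted p = 0.00991).

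Among core subunits, Ndufs3 had levels of 10.64 to 11.02 (median 10.80) in sleep-deprived mice and of 10.76 to 11.01 (median 10.87) in controls. It fell by 0.07 ± 0.02 (adjusted p = 0.0012). Ndufs1, the largest subunit of the NADH-oxidising arm, fell by 0.06 ± 0.01 (adjusted p = 0.00369), with 10.34 to 10.58 (median 10.42) in sleep-deprived mice and 10.38 to 10.61 (median 10.48) in controls. For both genes the control median was above that of sleep-deprived mice and the ranges overlapped.

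Among accessory subunits the largest change was in Ndufab1, the mitochondrial acyl carrier protein, which also serves lipoic acid synthesis. Its probe set 1435934_at had levels of 5.94 to 6.74 (median 6.40) in sleep-deprived mice and 5.81 to 6.47 (median 6.22) in controls, and rose by 0.15 ± 0.03 (adjusted p = 0.000303). A second probe set, 1453565_at, rose by 0.13 ± 0.03, but it was dim, with a mean level of 3.66 where the lowest value of the data was 2.69. The 3 others, the brightest included, were not called and differed by 0.03 to 0.06. Ndufs4, which steadies the electron-entry arm, rose by 0.10 ± 0.02 on 1418117_at (adjusted p = 0.00155). Its 3 other probe sets differed by 0.01 to 0.06 and were not called. Ndufb2 and Ndufb10, subunits of the membrane arm, rose by 0.09 ± 0.02 (adjusted p = 0.00558) and 0.06 ± 0.02 (adjusted p = 0.0103). The 2 brighter probe sets of Ndufb2 differed by 0.04 and 0.03 and were not called.

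Cytochrome c was the one role with a call on every probe set. Cycs, its gene in somatic tissues, had levels of 11.76 to 12.02 (median 11.90) in sleep-deprived mice and 11.68 to 12.04 (median 11.84) in controls on 1422483_a_at. The medians differed while the ranges nearly coincided. That probe set rose by 0.06 ± 0.02 (adjusted p = 0.00346), 1422484_at by 0.06 ± 0.02 (adjusted p = 0.00443), 1445484_at by 0.11 ± 0.03 (adjusted p = 0.00786) and 1456071_a_at by 0.05 ± 0.02 (adjusted p = 0.023). These 4 probe sets read 1 gene and are not independent.

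Of the 17 probe sets of complex III, 4 were higher and 1 lower. Uqcrh, the hinge protein at the docking face for cytochrome c, had levels of 11.89 to 12.09 (median 11.99) in sleep-deprived mice and 11.80 to 12.11 (median 11.94) in controls on 1453229_s_at. It rose by 0.05 ± 0.01 (adjusted p = 0.00357) and was higher in 12 of 12 strain-by-time comparisons, and its other probe set rose by 0.05 ± 0.01 (adjusted p = 0.0157). Uqcrb, a subunit near the ubiquinone site, rose by 0.08 ± 0.02 on 1416337_at (adjusted p = 0.000728). Its brighter probe set differed by 0.02 (adjusted p = 0.542). The small subunit gene Uqcr11 rose by 0.05 ± 0.02 (adjusted p = 0.0369). Uqcrc2, a core protein on the matrix side, fell by 0.05 ± 0.01 on 1435757_a_at (adjusted p = 0.0152), and its other probe set differed by -0.03 (adjusted p = 0.401). Cyc1, the haem subunit that reduces cytochrome c, differed by -0.02 with a 95% confidence interval of -0.05 to 0.02 and was not called.

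Of the 35 probe sets of complex IV subunits, 4 were higher and none lower, and 27 differences were above 0. Cox7c had levels of 3.87 to 5.02 (median 4.53) in sleep-deprived mice and 3.81 to 4.87 (median 4.39) in controls on 1459884_at. It rose by 0.15 ± 0.04 (adjusted p = 0.00433), and on 1459885_s_at by 0.11 ± 0.04 (adjusted p = 0.0273), 1459885_s_at being higher in 12 of 12 comparisons. Cox5a rose by 0.05 ± 0.02 on 1415933_a_at (adjusted p = 0.0252), and its other 2 probe sets differed by 0.03 and 0.02 and were not called. Cox7a2 rose by 0.03 ± 0.01 on 1416970_a_at (adjusted p = 0.0403), and 1416971_at differed by 0.03 (adjusted p = 0.225).

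Several complex IV subunits exist as pairs, a widely expressed form and one typical of heart and skeletal muscle or another tissue. Besides Cox7a2, no probe set of these pairs was called after sleep deprivation. The main form Cox4i1 differed by 0.02 (95% confidence interval -0.00 to 0.04) and Cox4i2, known from lung, by -0.00 (-0.06 to 0.06). Cox6a1 differed by 0.03 and 0.01 on its probe sets, and its muscle form Cox6a2 by 0.01 on both. For Cox6b1 the differences were 0.04 (adjusted p = 0.0599) and 0.02, and for the testis form Cox6b2 -0.05 (-0.09 to 0.00). Cox7a1, the muscle partner of Cox7a2, differed by 0.05 (-0.02 to 0.12). The supercomplex factor Cox7a2l differed by -0.02 to -0.03. Cox8a differed by -0.07 to 0.01, and its muscle form Cox8b by 0.04 (-0.04 to 0.12). Ndufa4 and the hypoxia-induced Ndufa4l2 each differed by -0.01.

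The assembly factors of complex IV gave 2 higher and 1 lower among 18 probe sets. Cox20, a chaperone of the newly made COX2 subunit, had levels of 9.34 to 9.80 (median 9.55) in sleep-deprived mice and 9.29 to 9.72 (median 9.45) in controls. It rose by 0.08 ± 0.02 on 1428619_at (adjusted p = 0.00526), while 1457714_at differed by 0.03. Cox19, which takes part in copper delivery, rose by 0.07 ± 0.02 (adjusted p = 0.0142). Cox18, which inserts COX2 into the membrane, fell by 0.06 ± 0.02 (adjusted p = 0.0273).

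Complex II, which also belongs to the citric acid cycle, had no probe set called by limma among 9, nor any at an unadjusted p under 0.05. Its median difference was -0.00832 and 2 differences were above 0. The flavoprotein gene Sdha differed by -0.02, -0.01, 0.02 and -0.00 on its 4 probe sets. The iron-sulfur subunit Sdhb differed by -0.03 (95% confidence interval -0.06 to 0.01), and the membrane anchors Sdhc and Sdhd by -0.02 to 0.02. The 95% confidence intervals of the brighter probe sets of Sdha, Sdhb and Sdhd lay between -0.06 and 0.02.

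ATP synthase held the largest called rise and the largest called fall of all members. Of 31 probe sets, 2 were higher and 2 lower. Subunit c, which forms the rotating ring, is made as an identical mature protein from 3 genes. One of them, Atp5g1, had levels of 3.49 to 6.09 (median 5.41) in sleep-deprived mice and 3.59 to 5.55 (median 4.79) in controls on 1444874_at. The ranges were wide, and AKR/J arrays of both conditions lay at 4.24 or lower. This probe set rose by 0.34 ± 0.05 (adjusted p = 2.52e-08). The far brighter Atp5g1 probe set, 1416020_a_at, differed by 0.03 (adjusted p = 0.267), so the change was seen on 1 of the 2 probe sets. For the other subunit c genes, Atp5g2 fell by 0.04 ± 0.02 on 1415980_at (adjusted p = 0.0477), and Atp5g3 differed by -0.00 (95% confidence interval -0.03 to 0.02).

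Atp5c1, the gene of the central rotor shaft, had levels of 6.12 to 6.65 (median 6.44) in sleep-deprived mice and 6.26 to 6.89 (median 6.58) in controls on 1438809_at. It fell by 0.18 ± 0.03 (adjusted p = 4.45e-06) and was lower in 12 of 12 comparisons. The brighter Atp5c1 probe set, 1416058_s_at, differed by -0.03 (adjusted p = 0.323). Atp5j2, the gene of a small membrane subunit, rose by 0.06 ± 0.02 on 1416269_at (adjusted p = 0.0135). Its other probe sets, 1435395_s_at and 1443495_at, differed by 0.04 and -0.00 and were not called.

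Across the 58 genes with several probe sets, 16 had at least 1 called after sleep deprivation, 4 had all of them called, and none had calls in both directions. The 4 were Cycs, Uqcrh, Ndufaf4 and Cox7c. The matching shares over all genes with several probe sets were not computed, so these counts describe the members only. The probe sets of Cox7c had low mean levels, 4.44 (1459884_at) and 6.38 (1459885_s_at), where array medians were 5.65 to 5.71. The number of arrays limits the precision, and 24 of the 33 calls held whichever single array was left out. The others were Ndufaf2, Cox5a, Cox18, Uqcr11, Cox7a2, Atp5g2 and 1 probe set each of Ndufaf4, Cycs and Cox7c, whose adjusted p passed 0.05 without one array or another, the highest being 0.0903 for Uqcr11.

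**Figure D2:**
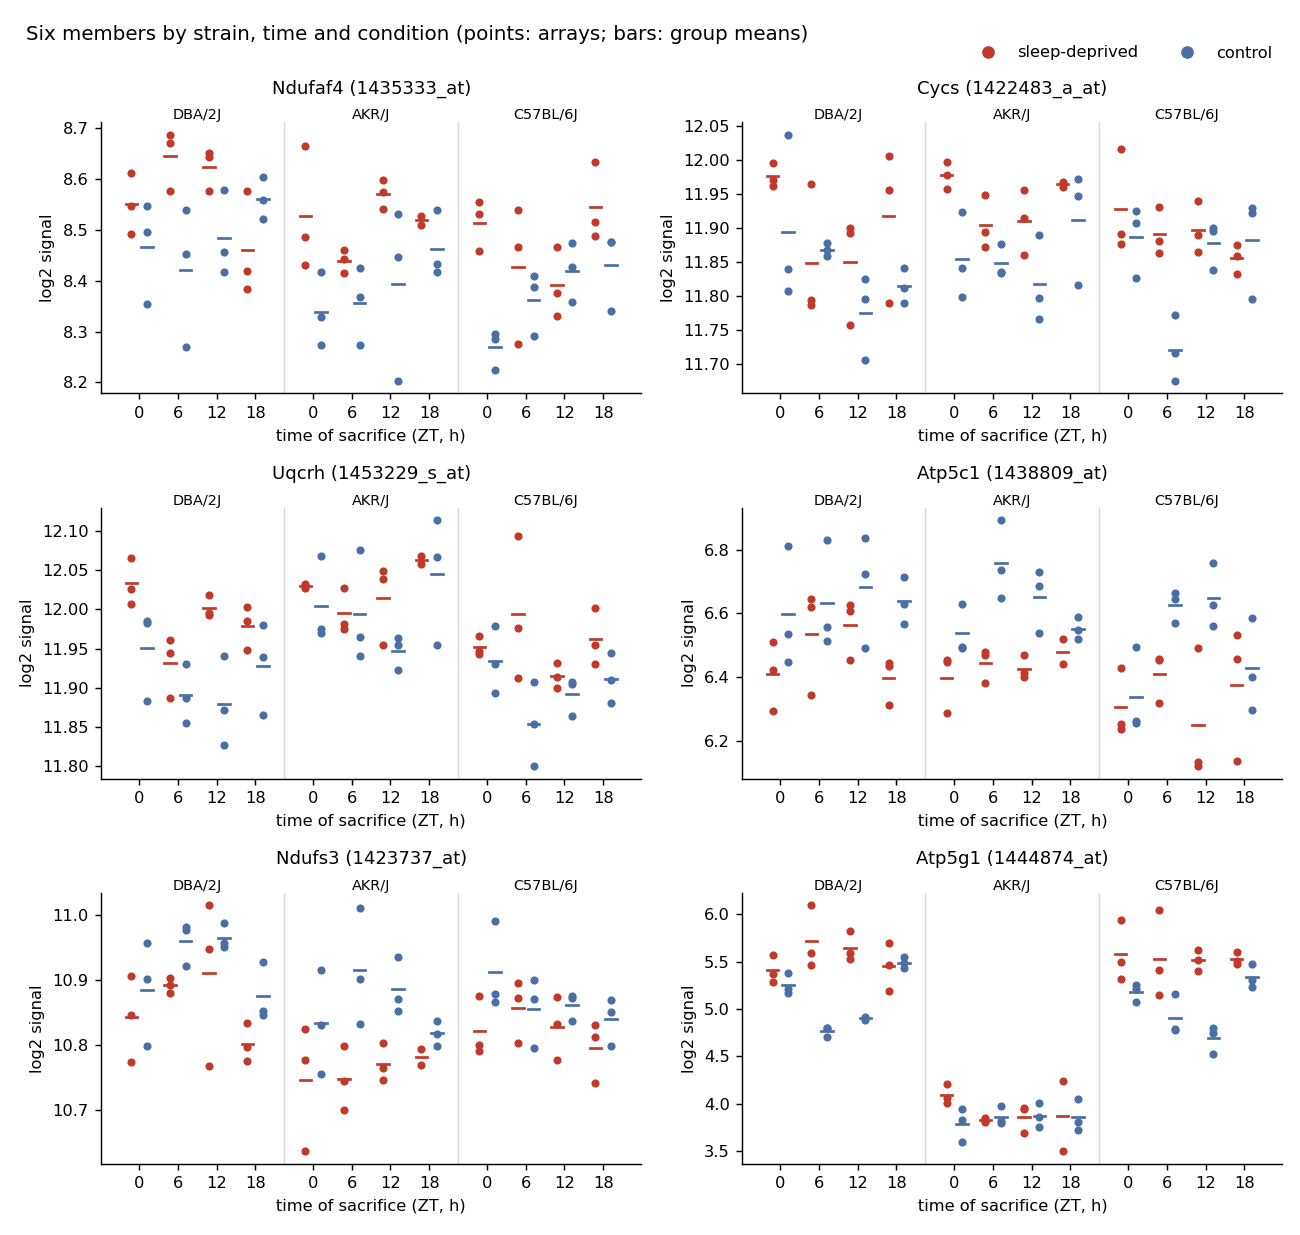
Log2 level on every array (points) of 6 probe sets by strain, sleep-deprived mice in red left of controls in blue, with bars at the means. Ndufaf4, Cycs and Uqcrh were higher and Atp5c1 and Ndufs3 lower in sleep-deprived mice with overlapping arrays, and Atp5g1 was higher by 0.45 in DBA/2J and 0.51 in C57BL/6J mice but by 0.07 in AKR/J mice, whose arrays were the lowest.

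The promoters of nuclear respiratory genes are known for sites of nuclear respiratory factor 1 (NRF1) and of the ETS-family factor GABP, so the windows from 250 bases before to 50 after each gene's start were searched for the 10-letter NRF1 consensus, which reads the same on both strands and stands in capitals in the first pair of sequences printed here, and for CCGGAAGT (ETS; ACTTCCGG on the opposite strand). RefSeq windows of build GRCm38.p6 were at hand for 81 of the 100 genes. The NRF1 letters were found in 6 genes (7.41%), against 290 of 27025 genes with a window (1.07%), and the ETS letters in 8 genes (9.88%), against 1164 (4.31%). No member had both. Of the 22 genes called after sleep deprivation that had a window, 6 held one of the motifs: Ndufaf4, Ndufaf5 and Atp5g2 the NRF1 letters, and Uqcrh, Uqcr11 and Ndufs3 the ETS letters. A match describes these letters only and is neither a shown binding site nor a cause, and it was present in genes that rose (Ndufaf4, Ndufaf5, Uqcrh, Uqcr11) and in genes that fell (Ndufs3, Atp5g2). These 4 are shown as examples of both motifs and of both directions, 5′ to 3′ on the gene's strand, with the motif in capitals (Ndufaf4 and Ndufaf5 with the NRF1 letters, Uqcrh and Ndufs3 with the ETS letters on the opposite strand):
Ndufaf4 (chr4:24897833-24898132, plus strand): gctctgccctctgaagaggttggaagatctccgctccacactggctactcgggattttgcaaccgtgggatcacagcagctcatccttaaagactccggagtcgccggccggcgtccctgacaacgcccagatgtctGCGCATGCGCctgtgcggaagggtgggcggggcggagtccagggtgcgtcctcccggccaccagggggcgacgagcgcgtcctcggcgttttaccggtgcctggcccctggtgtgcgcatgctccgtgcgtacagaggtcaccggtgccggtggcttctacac
Ndufaf5 (chr2:140170396-140170695, plus strand): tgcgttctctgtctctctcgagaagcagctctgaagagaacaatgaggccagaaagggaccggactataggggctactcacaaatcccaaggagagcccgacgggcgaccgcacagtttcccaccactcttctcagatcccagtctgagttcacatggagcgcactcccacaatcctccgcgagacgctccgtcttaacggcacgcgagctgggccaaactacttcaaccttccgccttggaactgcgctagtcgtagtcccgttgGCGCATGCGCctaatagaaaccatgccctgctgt
Uqcrh (chr4:116075021-116075320, minus strand): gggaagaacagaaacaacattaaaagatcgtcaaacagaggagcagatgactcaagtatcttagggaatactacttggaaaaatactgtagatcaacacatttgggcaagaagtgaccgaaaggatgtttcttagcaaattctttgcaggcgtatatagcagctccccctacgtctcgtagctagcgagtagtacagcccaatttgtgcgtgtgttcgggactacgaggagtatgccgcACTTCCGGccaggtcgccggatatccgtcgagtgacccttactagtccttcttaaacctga
Ndufs3 (chr2:90904672-90904971, minus strand): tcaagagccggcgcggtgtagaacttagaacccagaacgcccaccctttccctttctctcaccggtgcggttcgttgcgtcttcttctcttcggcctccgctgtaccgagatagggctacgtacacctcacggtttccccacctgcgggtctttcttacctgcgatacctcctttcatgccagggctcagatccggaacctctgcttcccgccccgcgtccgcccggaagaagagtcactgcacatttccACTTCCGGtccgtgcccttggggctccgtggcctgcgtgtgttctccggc

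Within single strains fewer members were called. In DBA/2J mice 8 of 202 were called, 5 higher and 3 lower, where 6.9% of all probe sets were called (3.27% higher, 3.63% lower). In AKR/J mice 6 were called, 4 higher and 2 lower, where 5.85% of all were (3.4% higher, 2.45% lower). In C57BL/6J mice 2 were called, 1 higher and 1 lower, where 6.45% of all were (3.27% higher, 3.18% lower), so that in each strain the members' share was below the background. The median member difference was 0.0284 in DBA/2J, 0.00544 in AKR/J and 0.0117 in C57BL/6J mice. Over all probe sets it was 0.00019, -0.00699 and -0.000377. Atp5c1 (1438809_at) was called in each strain, at -0.16, -0.19 and -0.18 in DBA/2J, AKR/J and C57BL/6J mice, but in each strain the call was lost without one array or another (highest adjusted p 0.104, 0.0548 and 0.0673). In DBA/2J mice Atp5g1 (1444874_at, 0.45), Ndufb2 (0.14), Ndufaf5 (0.13), Cox20 (0.12) and Uqcrh (0.07) rose, and Uqcrc2 (-0.08) and Ndufs1 (-0.08) fell. In AKR/J mice Cox16, a complex IV assembly factor (0.20 on 1447629_at, its dimmest probe set), Ndufab1 (1435934_at, 0.18), Ndufaf1 (0.15) and Ndufaf4 (1435333_at, 0.13) rose and Ndufs3 (-0.10) fell. The other Cox16 probe sets, the bright 1450895_a_at and 1423190_at, differed by 0.07 (adjusted p = 0.36) and 0.05 in AKR/J mice and were not called. In C57BL/6J mice Atp5g1 rose by 0.51 on 1444874_at. In AKR/J mice that probe set had levels of 3.49 to 4.24 (median 3.94) after sleep deprivation and 3.59 to 4.05 (median 3.82) in controls, a difference of 0.07 (adjusted p = 0.74).

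Calls in a strain did not show that strains differed. In the test of strain by sleep deprivation, 0 of 202 members were called by limma, where 0.0222% of all probe sets were, and 8 members had an unadjusted p under 0.05. The smallest adjusted p of a member was 0.146, and that of Atp5g1 1444874_at was 0.19. Most single-strain calls were lost when one array or another was left out: none of the 6 in AKR/J mice, 2 of the 8 in DBA/2J mice (Atp5g1 and Ndufaf5) and 1 of the 2 in C57BL/6J mice (Atp5g1) held whichever array was left out. Without AKR/J sleep-deprived ZT18 replicate 1 the count in AKR/J was 1, and without DBA/2J sleep-deprived ZT0 replicate 3 that in DBA/2J was 2. Leaving out C57BL/6J sleep-deprived ZT6 replicate 2 gave 7 in C57BL/6J, where the count was 5 with the 6 arrays that stood apart as a block and 4 among probe sets above the median level.

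By time of sacrifice, 2 members were called at ZT0, both higher, where 1.71% of all probe sets were called (1.26% higher, 0.453% lower). At ZT6, 11 were higher and 2 lower, where 10.4% of all were called (5.13% higher, 5.29% lower). At ZT12, 1 was higher and 2 were lower, where 9.75% of all were called (4.71% higher, 5.04% lower). At ZT18 limma called 0 members, where 0.0777% of all were called (0.06% higher, 0.0178% lower); 5 members had an unadjusted p under 0.05, and the smallest adjusted p was 0.537. ZT6 follows the deprivation that filled the first part of the light phase. Of the 202 differences, 158 were above 0 at ZT0, 139 at ZT6, 90 at ZT12 and 131 at ZT18, with medians of 0.0263, 0.025, -0.00531 and 0.0111. These are 78.2%, 68.8%, 44.6% and 64.9% of members, against 46.1%, 48.7%, 51.2% and 47.5% of all probe sets. The medians over all probe sets were -0.00675, -0.00246, 0.00237 and -0.00358, so at ZT12 the members lay below the background. At ZT0 the assembly factors Ndufaf1 (0.19) and Ndufaf4 (0.17) rose. At ZT6 Atp5g1 (1444874_at) rose by 0.51, Ndufab1 by 0.25 and 0.22 on its 2 called probe sets, Cox7c (1459884_at) by 0.24, Uqcr10 (1434340_at), a small complex III subunit, by 0.22, Ndufs4 by 0.16, Cox20, Cox19 and Ndufb2 by 0.14, Ndufaf4 by 0.12 and Cycs (1456071_a_at) by 0.09. Atp5c1 (-0.21) and Ndufs1 (-0.10) fell at ZT6. At ZT12 Atp5g1 rose by 0.52, and Atp5c1 (-0.25) and Atp5g2 (-0.12) fell. Only 4 of the 13 calls at ZT6 and 1 of the 2 at ZT0 held whichever array was left out. Among genes with several probe sets, 1 had a call at ZT0, 10 at ZT6 and 3 at ZT12. None of these had all its probe sets called, and the matching shares over all genes were not computed.

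The test of time by sleep deprivation called 0 of 202 members by limma (1.4% of all probe sets), with 6 at an unadjusted p under 0.05. The smallest adjusted p was 0.0841, for Atp5g1 1444874_at, whose differences were 0.29, 0.51, 0.52 and 0.05 at ZT0, ZT6, ZT12 and ZT18. The count at ZT12, 3, was unsteady: it was 10 with the 6 arrays that stood apart on the spike-ins as a block, 7 without them, 8 among probe sets above the median level, 6 with quantile normalization and 6 with trend and robust eBayes. It was 7 with a replicate block within each strain at ZT0, and up to 6 when single arrays were left out, as without AKR/J control ZT12 replicate 1. The 3 reported calls held whichever array was left out. At ZT0 the count, 2, was 4 with the spike-in block and 4 above the median level, and 1 without AKR/J sleep-deprived ZT0 replicate 2. The count at ZT6 was 7 without AKR/J control ZT6 replicate 1, and 6 without the 6 arrays that stood apart on the spike-ins, 3 of which were at ZT6.

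Time of day itself was tested over the 4 times within each condition. In sleep-deprived mice limma called 0 of 202 members (1.42% of all probe sets; 16 at an unadjusted p under 0.05, smallest adjusted p 0.103), and in controls it called 10 (11.7% of all probe sets). In controls Atp5g1 (1444874_at) varied most, with group means over strains of 4.74, 4.51, 4.49 and 4.89 at ZT0, ZT6, ZT12 and ZT18 (adjusted p = 0.00101). In sleep-deprived mice its means were 5.03, 5.02, 5.01 and 4.95 at the same times. The other 9 called in controls were Cox7c (1459885_s_at, a range of 0.28 between the highest and lowest time), Atp5c1 (1438809_at, 0.18), Ndufb2 (1442658_at, 0.17), Ndufaf1 (0.16), Ndufaf8, a complex I assembly factor (0.15), Atp5g2 (1415980_at, 0.12), Ndufaf5 (0.11), Ndufaf3 (0.10) and Ndufs1 (0.09). Of the 10, 5 were highest at ZT18 and 3 were lowest there. Sleep-deprived mice had a smaller range than controls in all 10, which is a description, since the 10 were picked by their variation in controls. All but Ndufaf8 were also called for sleep deprivation, but both tests use the control arrays and so are not independent. Without AKR/J control ZT6 replicate 3 the count in controls was 5, and the calls of Atp5g1 and Ndufaf5 held whichever array was left out.

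**Figure D3:**
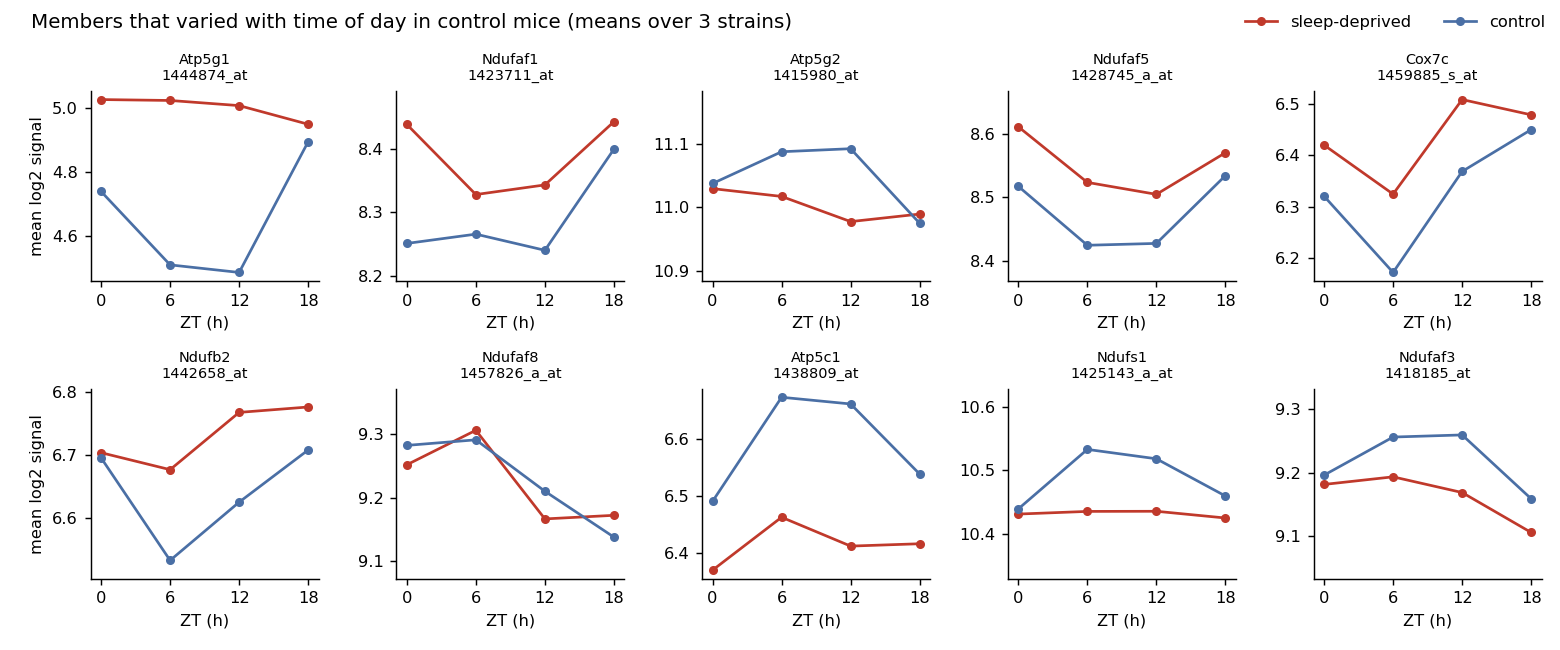
Mean log2 level over the 3 strains at each time of sacrifice (ZT, hours after light onset), in sleep-deprived mice (red) and controls (blue), for the 10 probe sets called for time of day in controls. The range over the times was smaller in sleep-deprived mice in all 10; for Atp5g1 it was 0.08 in sleep-deprived mice against 0.41 in controls.

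Between strains, called members differed in sleep-deprived mice by a median of 0.14 (DBA/2J minus C57BL/6J), 0.147 (AKR/J minus C57BL/6J) and 0.181 (DBA/2J minus AKR/J). In controls the medians were 0.16, 0.148 and 0.151. They cannot be set against the 0.0677 for sleep deprivation over all groups, since a comparison of fewer arrays tends to call only larger differences. Sleep deprivation within DBA/2J, AKR/J and C57BL/6J mice gave called medians of 0.122, 0.161 and 0.343. Over all 202 members, called or not, the median size there was 0.0376, 0.0284 and 0.0356. For the same pairs of strains it was 0.0707, 0.0639 and 0.0336 in sleep-deprived mice and 0.0583, 0.0614 and 0.0419 in controls. Measures of RNA quality moved with strain: the 3 prime minus 5 prime signal averaged -0.229 in DBA/2J, -0.224 in AKR/J and -0.184 in C57BL/6J mice for Gapdh, and 0.734, 0.717 and 0.666 for Actb, with overlapping arrays. Of the 6 arrays that stood apart on the spike-ins, 4 were of C57BL/6J mice, and all 6 also had the highest Gapdh values. The medians for Gapdh lay closer together than the means, at -0.230 in DBA/2J, -0.231 in AKR/J and -0.208 in C57BL/6J mice. Without these 6 arrays the counts of members called, in the order of pairs just given, were 70, 66 and 37 in sleep-deprived mice and 68, 69 and 39 in controls; the part of RNA quality was not tested. In DBA/2J minus C57BL/6J, 84 members were called among sleep-deprived mice, 59 higher and 25 lower, where 25.5% of all probe sets were called (15.1% higher, 10.4% lower). Among controls 63 were called, 38 higher and 25 lower (23.2% of all, 13.6% higher and 9.55% lower). In AKR/J minus C57BL/6J, 78 were called among sleep-deprived mice, 54 higher and 24 lower (24.8% of all, 14.6% higher and 10.2% lower). Among controls 69 were called, 48 higher and 21 lower (22.9% of all, 13.1% higher and 9.74% lower). In DBA/2J minus AKR/J 34 were called among sleep-deprived mice, 24 higher and 10 lower (15.6% of all, 7.8% higher and 7.76% lower). Among controls 40 were called, 22 higher and 18 lower (17.3% of all, 9.01% higher and 8.3% lower). As shares of 202 members these counts were 41.6%, 38.6% and 16.8% in sleep-deprived mice and 31.2%, 34.2% and 19.8% in controls, in the same order of pairs. Calls of the same sign in both conditions numbered 58 for DBA/2J minus C57BL/6J, which is 69% of the calls in sleep-deprived mice and 92.1% of those in controls (over all probe sets, 69.6% and 76.6%). They numbered 56 for AKR/J minus C57BL/6J (71.8% and 81.2%; over all probe sets 62.6% and 67.9%) and 25 for DBA/2J minus AKR/J (73.5% and 62.5%; over all probe sets 75.7% and 68.1%). Only Cox16 (1447629_at, DBA/2J minus AKR/J) was called with opposite signs, at -0.15 in sleep-deprived mice (adjusted p = 0.0349) and 0.16 in controls (adjusted p = 0.0133). The bright Cox16 probe set, 1450895_a_at, differed by -0.07 in sleep-deprived mice and -0.06 in controls and was not called.

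**Figure D4:**
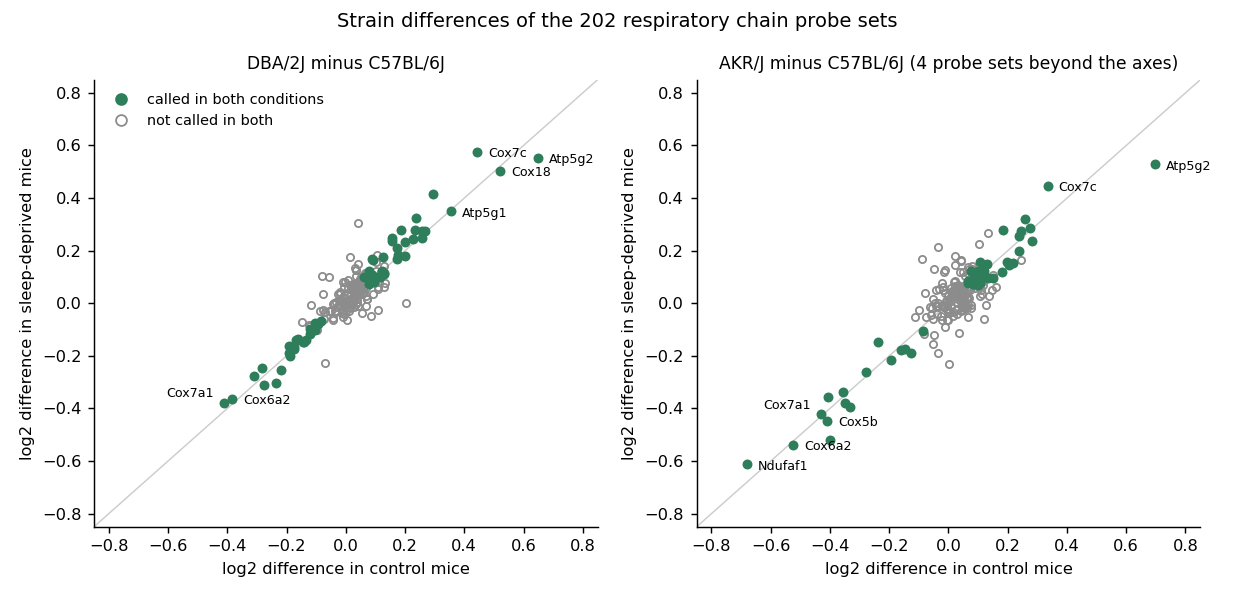
Strain differences in log2 level of the member probe sets, in control mice on the x axis and in sleep-deprived mice on the y axis, for DBA/2J minus C57BL/6J and AKR/J minus C57BL/6J. Points lie near the diagonal, and 4 probe sets of Uqcr10, Sdha and Atp5g1 lie beyond the axes of the AKR/J panel.

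Uqcr10, Sdha and Atp5g1 differed strongly between AKR/J and C57BL/6J mice on some of their probe sets and not on others. On Uqcr10 1434340_at, AKR/J controls had levels of 4.28 to 5.15 (median 4.66), against 8.45 to 8.81 in C57BL/6J controls (median 8.62), a difference of -3.92 ± 0.06 (adjusted p = 3.44e-48) with no overlap. Uqcr10 1434341_x_at differed by -2.00 ± 0.07. On the third probe set, Uqcr10 1424364_a_at, the strains differed by -0.04 (adjusted p = 0.609). Sdha 1433293_at had levels of 4.45 to 5.45 (median 4.82) in AKR/J controls and 6.76 to 7.12 (median 6.88) in C57BL/6J controls, a difference of -2.03 ± 0.07, while of its 3 other probe sets 1426688_at differed by -0.10 ± 0.03 (adjusted p = 0.00756) and the others by -0.06 and 0.03 and were not called. Atp5g1 1444874_at was lower in AKR/J by 1.18 ± 0.08, whereas Atp5g1 1416020_a_at was higher in AKR/J, at 0.28 ± 0.03. Sequence differences between strains under the probes were not analysed here. A strain difference, on 1 probe set or on several, is therefore a difference in hybridisation signal. In DBA/2J minus C57BL/6J controls, Uqcr10 1434340_at differed by 0.23 ± 0.06 (adjusted p = 0.0039), and Sdha 1433293_at by -0.01 and was not called.

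By role, control strains differed at 19 of 35 probe sets of complex IV subunits in DBA/2J minus C57BL/6J and also in AKR/J minus C57BL/6J. In both pairs 12 were higher and 7 lower. Over all probe sets 23.2% and 22.9% were called in these pairs. Several probe sets of 1 gene count separately here, and the 7 lower ones were all of Cox5b, Cox6a2 and Cox7a1. Among complex I assembly factors 7 and 6 of 10 were called, and among accessory subunits 21 and 21 of 62. None of the 16 core complex I probe sets was called in either pair (1 in DBA/2J minus AKR/J), and none of the 4 of Cycs in any of the 3 pairs. At an unadjusted p under 0.05, limma gave 3 core probe sets in DBA/2J minus C57BL/6J and 2 in AKR/J minus C57BL/6J, and 1 of Cycs, in AKR/J minus C57BL/6J. Complex II gave 2 calls in DBA/2J minus C57BL/6J and 3 in AKR/J minus C57BL/6J, and ATP synthase 9 and 13 of 31.

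In complex IV, Cox5b and Cox6a2 differed on several probe sets. Cox5b, a subunit with a zinc site, was lower than in C57BL/6J on its 4 bright probe sets, by 0.19 to 0.28 in DBA/2J controls and by 0.35 to 0.41 in AKR/J controls. These read 1 gene, and 1454716_x_at, 1435613_x_at and 1456588_x_at among them can match several transcripts. On 1416902_a_at the levels were 11.47 to 11.79 in DBA/2J, 11.39 to 11.68 in AKR/J and 11.76 to 12.06 in C57BL/6J controls, and AKR/J did not overlap C57BL/6J. Its 2 dim probe sets were not called in controls. Cox6a2, the heart and muscle form of subunit 6a, was lower than in C57BL/6J on both probe sets, by 0.38 ± 0.05 and 0.31 ± 0.05 in DBA/2J and by 0.52 ± 0.05 and 0.41 ± 0.05 in AKR/J controls. Cox7a1, the muscle form of subunit 7a, was lower by 0.41 ± 0.06 in DBA/2J and by 0.43 ± 0.06 in AKR/J controls. Of 8 skeletal muscle markers, none was called in these 2 pairs among controls. Among sleep-deprived mice the marker Acta1 was higher in DBA/2J than in C57BL/6J, by 0.28 (limma adjusted p = 0.0042). Against AKR/J, Acta1 was higher in DBA/2J by 0.21 in controls (adjusted p = 0.0435) and by 0.23 in sleep-deprived mice (adjusted p = 0.0329). A part of muscle tissue in these differences was not tested.

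Other complex IV genes were higher than in C57BL/6J. Cox18 had levels of 8.42 to 8.70 (median 8.56) in DBA/2J, 7.99 to 8.19 (median 8.04) in AKR/J and 7.82 to 8.25 (median 8.04) in C57BL/6J controls, so DBA/2J stood apart from both. The difference was 0.52 ± 0.03 for DBA/2J minus C57BL/6J and 0.49 ± 0.03 for DBA/2J minus AKR/J. Cox7c (1459884_at, a dim probe set) was higher by 0.44 in DBA/2J and 0.33 in AKR/J. Cox6b2 was higher by 0.24 and 0.18, and Cox7a2 by 0.08 and 0.11. Cox5a was higher in DBA/2J than in C57BL/6J by 0.20 on 1415933_a_at, and Cox15, a factor for the haem of complex IV, by 0.20. Cox8a was higher by 0.09 in DBA/2J and by 0.22 in AKR/J on 1416112_at. Its muscle form Cox8b (0.26) and Cox6b1 (0.12 on 1416565_at) were higher in AKR/J than in C57BL/6J. Cox4i1, Cox4i2, Cox6a1, Ndufa4 and Ndufa4l2 were called in neither of these 2 pairs, with differences of 0.05 or less in size.

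In complex I, Ndufaf1 had levels of 8.30 to 8.60 (median 8.42) in DBA/2J, 7.62 to 8.27 (median 7.85) in AKR/J and 8.47 to 8.65 (median 8.57) in C57BL/6J controls, with AKR/J below both. The difference was -0.15 ± 0.04 for DBA/2J minus C57BL/6J, -0.68 ± 0.04 for AKR/J minus C57BL/6J and 0.54 ± 0.04 for DBA/2J minus AKR/J. Ndufaf7 was lower than in C57BL/6J by 0.24 in DBA/2J and 0.28 in AKR/J, Ndufaf2 by 0.22 and 0.15, and Ndufb10 by 0.14 and 0.13. Ndufc2, a membrane-arm subunit, was lower on 1455036_s_at by 0.17 in DBA/2J and by 0.16 in AKR/J. On another probe set, 1416366_at, Ndufc2 was lower by 0.24 in AKR/J. Ndufa3 was lower in DBA/2J than in either other strain, by 0.19 against C57BL/6J and by 0.18 against AKR/J. Ndufaf5 was higher by 0.16 in DBA/2J than in C57BL/6J. Ndufaf6 (0.18), Ndufaf8 (0.16) and Ndufa8 (0.13) were higher in AKR/J than in C57BL/6J.

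Among the remaining complexes, Atp5g2 (1456128_at, a dim probe set) was higher than in C57BL/6J by 0.65 in DBA/2J and 0.70 in AKR/J. The bright Atp5g1 probe set, 1416020_a_at, was higher by 0.35 ± 0.03 in DBA/2J and 0.28 ± 0.03 in AKR/J. Atp5g3 differed by 0.02 and -0.00 and was not called. Sdhc (1448630_a_at) was higher by 0.30 ± 0.07 in DBA/2J than in C57BL/6J. Sdhd (1428235_at) was higher by 0.08 ± 0.03 in AKR/J than in C57BL/6J. Uqcrh (1453229_s_at) was higher by 0.10 in AKR/J than in C57BL/6J and lower by 0.09 in DBA/2J than in AKR/J. Cyc1 and Sdhb were not called in these pairs with C57BL/6J. Probe sets of 1 gene were called in opposite directions in Atp5g1 and Atp5j2 (AKR/J minus C57BL/6J, both conditions), in Ndufa12 (DBA/2J minus C57BL/6J, both conditions) and in Cox5b (DBA/2J minus C57BL/6J, sleep-deprived mice).

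**Figure D5:**
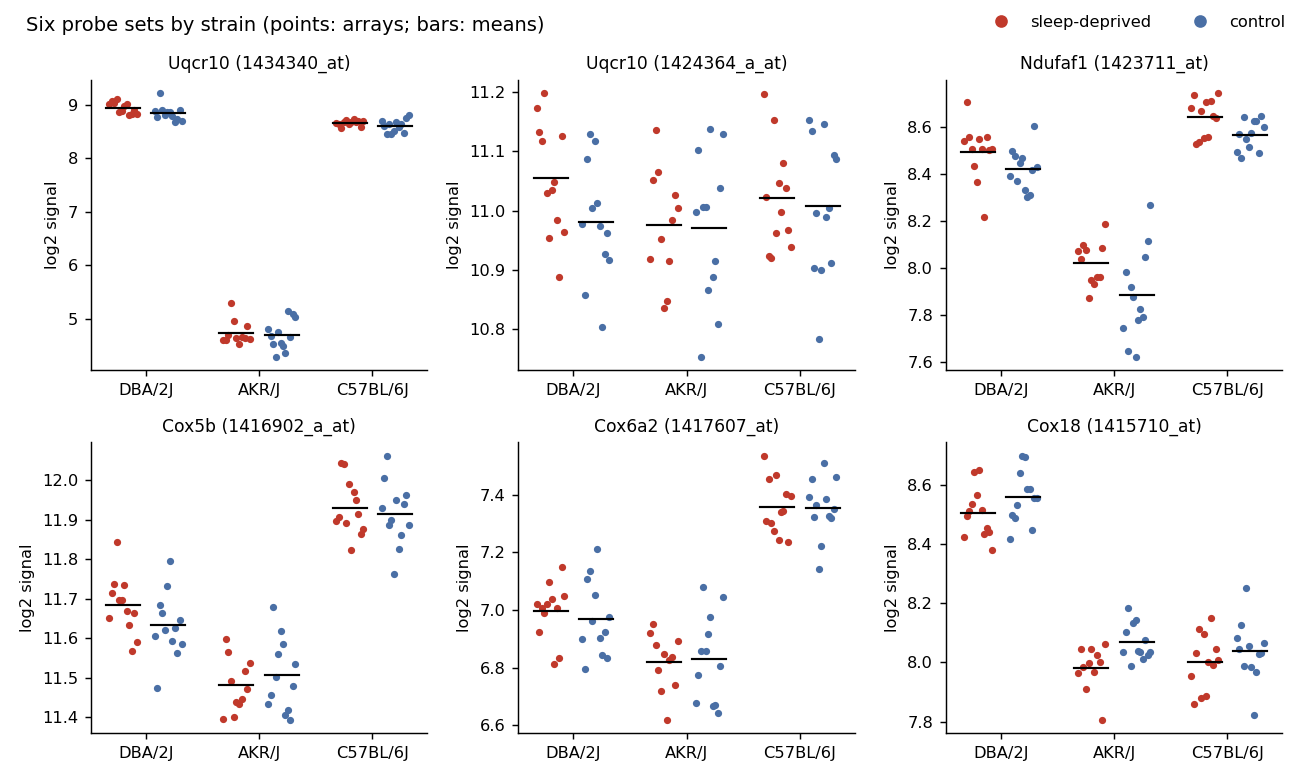
Log2 level on every array (points) of 6 probe sets in the 3 strains, sleep-deprived mice in red and controls in blue, each cluster in order of time, with bars at the means. Uqcr10 was low in AKR/J on 1434340_at and not called between AKR/J and C57BL/6J on 1424364_a_at, and Cox18 was highest in DBA/2J.

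Markers of other cell types moved with both comparisons. After sleep deprivation 4 of 7 oligodendrocyte markers fell and none rose, with a mean level of 10.49 to 10.93 (median 10.67) in sleep-deprived mice and 10.56 to 11.17 (median 10.82) in controls. None of 8 astrocyte, 8 muscle, 6 pituitary or 3 blood markers was called for sleep deprivation, but all 6 pituitary markers had differences below 0, with a median of -0.389 and standard errors of 0.06 to 0.52. Neuronal markers gave 2 higher and 1 lower of 10, microglial 2 higher and 1 lower of 7, endothelial 1 higher and 2 lower of 7, and choroid plexus 1 higher of 6. Between control strains, 7 of 7 oligodendrocyte markers were lower in DBA/2J and 6 of 7 in AKR/J than in C57BL/6J, with mean levels over both conditions of 10.49 to 10.87 in DBA/2J, 10.56 to 10.85 in AKR/J and 10.78 to 11.17 in C57BL/6J. Of 7 microglial markers, 5 were higher and 1 lower in AKR/J than in C57BL/6J, and of 6 choroid plexus markers 4 were lower in DBA/2J and 3 in AKR/J than in C57BL/6J. The mean level of the 10 neuronal markers over both conditions was 11.35 to 11.49 in DBA/2J, 11.55 to 11.66 in AKR/J and 11.42 to 11.55 in C57BL/6J, though among controls 1 of the 10 was called lower in DBA/2J, and 1 higher and 1 lower in AKR/J, than in C57BL/6J. Their part in the members' differences was not tested.

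Other mitochondrial genes were read from lists set by function, with earlier results of these data known, 1 probe set a gene, the brightest. Over all genes read so, 22.1% were called (9.95% higher, 12.2% lower), and several of the lists had shares near that. After sleep deprivation, 5 of 21 regulators of mitochondrial biogenesis rose and 1 fell, with a median of 0.0402, against -0.00459 for all genes on their brightest probe sets. The subunits of GABP, Gabpa (0.16 ± 0.03) and Gabpb1 (0.17 ± 0.04), the oestrogen-related receptor gene Esrra (0.08 ± 0.02) and Nfe2l2 (0.12 ± 0.03), a regulator of antioxidant genes, were among the 5, and the coactivator gene Ppargc1a differed by -0.02 (adjusted p = 0.641). In protein import, 2 of 21 rose and 1 fell, with a median of 0.0199: the matrix chaperonin genes Hspe1 (0.21 ± 0.02) and Hspd1 (0.16 ± 0.02) rose and the import motor gene Timm44 (-0.10 ± 0.01) fell. Of 25 assembly factors not covered by the symbol rule, 3 rose and 6 fell, with a median of -0.00488. Among them the complex II factor gene Sdhaf1 (-0.25 ± 0.02) and the ATP synthase factor gene Atpaf1 (-0.10 ± 0.02) fell, and Tmem70 (0.08 ± 0.01), for ATP synthase, and Ttc19 (0.08 ± 0.02), for complex III, rose.

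In the citric acid cycle and pyruvate dehydrogenase list, 2 of 23 rose and 3 fell, with a median of -0.0247. Pdp1 and Pdk4, the phosphatase and a kinase of pyruvate dehydrogenase with opposing actions, rose by 0.29 ± 0.03 and 0.20 ± 0.04, and Dlat (-0.06 ± 0.02) and Pdha1 (-0.04 ± 0.01), subunits of the enzyme, fell. Among 16 carriers and channels 1 rose and 3 fell, with a median of -0.021. The oxoglutarate carrier Slc25a11 and the aspartate-glutamate carrier Slc25a12 each fell by 0.10, the pyruvate carrier subunit Mpc1 fell by 0.06, and Slc25a14 rose by 0.08. Of the genes encoded by mitochondrial DNA, 1 was measured here, ND5 of complex I, which fell by 0.03 ± 0.01 (adjusted p = 0.0452).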

How the data were processed

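Whole-brain RNA was read on 71 one-colour arrays, each a pool of 3 mice. What was deposited is a log2 level per probe set, which the authors obtained by RMA per the submitters' processing notes; version, settings and detection calls are not stated in the sources used here. Values ran from 2.69 to 14.8, with array medians of 5.65 to 5.71. Gene names are those of the platform annotation, with 34945 probe sets of 1 symbol, 932 of several and 9160 of none, and 64 control probe sets were dropped. Groups follow the sample labels, and no pair of arrays held identical values. The precision is set by the number of arrays.

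Cell means of the 24 groups were estimated jointly with limma (version 3.58.1, R version 4.3.3, files read with the data.table package, version 1.17.8), leaving 47 residual degrees of freedom. The 18 comparisons were two-sided, or F tests for interactions and time of day, with Benjamini-Hochberg adjustment over 45037 probe sets. The overall effect of sleep deprivation is the mean of 12 differences within strain and time. The script was tested on simulated data.

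The members and lists were chosen with earlier results of these data known. Named genes are the called ones with the smallest p, up to 12 higher and 12 lower a comparison, with isoform pairs, complex II genes, Cycs and Cyc1 always given and up to 4 called members a list. Alternatives were quantile normalization, a filter at the median level, eBayes with trend and robust options, centring on array medians, a replicate block, the 6 arrays with low spike-ins as a block or left out, no _x_at or _s_at probe sets, and each array left out in turn; a replicate block within each strain at ZT0 was added after seeing the data. Promoters are RefSeq windows of GRCm38.p6, and the build behind the probes is not stated in the sources used here.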

Additional observations from a re-analysis of the deposited data

How the results depend on the processing

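Of 162 member counts under the alternatives other than leaving out an array (18 comparisons, 9 settings), 146 were within 1.5 times the reported count, and no called direction reversed. The 16 that moved were these. At ZT12 the count, 3, became 6 with quantile normalization, 8 among probe sets above the median level, 6 with trend and robust eBayes, 10 with the 6 arrays of low spike-ins as a block, 7 without them and 7 with a replicate block within each strain at ZT0. In C57BL/6J mice the count, 2, became 4 above the median level and 5 with the spike-in block, and at ZT0 the count, 2, became 4 in both. For time of day in sleep-deprived mice, 1 member was called above the median level and 1 with trend and robust eBayes, against 0. At ZT6 the count, 13, was 6 without the 6 arrays. Without _x_at and _s_at probe sets, which leaves fewer members, the counts were 5 in DBA/2J mice, 39 for DBA/2J minus C57BL/6J and 26 for DBA/2J minus AKR/J in controls. Apart from that last construction, the cause was not tested.

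Leaving out each array in turn gave 28 to 37 calls for sleep deprivation over all groups, 2 to 9 in DBA/2J, 1 to 7 in AKR/J and 1 to 7 in C57BL/6J mice. It gave 1 to 4 at ZT0, 7 to 16 at ZT6, 3 to 6 at ZT12 and 0 at ZT18, 0 to 1 for strain and for time by sleep deprivation, and 0 to 1 for time of day in sleep-deprived mice against 5 to 11 in controls. In sleep-deprived mice the strain counts ran from 69 to 85 (DBA/2J minus C57BL/6J), 62 to 79 (AKR/J minus C57BL/6J) and 30 to 36 (DBA/2J minus AKR/J), and in controls from 59 to 67, 63 to 73 and 37 to 46.

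The labels do not say what a replicate number stands for. Over 35 same-numbered pairs of sleep-deprived and control arrays the correlation of deviations ran from -0.275 to 0.603 (median 0.0207), 6 were over 0.1, and 19 were best with their own number. At ZT0, however, all 9 pairs were above 0 and best with their own number, and in C57BL/6J mice at ZT0 all 3 were over 0.1 (0.228 to 0.603); in no other strain and time were all pairs over 0.1. A replicate block within each strain at ZT0, chosen after seeing the data, gave 36 calls for sleep deprivation over all groups and 2 at ZT0, all of the reported calls among them in both. With a replicate block, 32 members were called for sleep deprivation over all groups, 4 at ZT12 and 9 for time of day in controls.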
